A study of Homo sapiens with 6 samples.

Results

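The genes examined here were NFE2L2, NQO1, HMOX1, GCLC, GCLM, TXNRD1, TXN, GSTP1 and MGST1, the transcription factor NRF2 with enzymes and redox proteins of the antioxidant and glutathione defence. They were taken by name, and a gene counted as measured where a probe set of the array was annotated to its symbol alone. This gave 12 probe sets for 8 of the 9 genes, out of 19064 single-gene probe sets for 11963 genes on the array. No probe set was matched to MGST1, so it has no value here. All 12 probe sets had signal above the median of the table (52.5 units) on at least 3 of 6 arrays and were tested.

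The study compared PC3 cells, a human prostate cancer line grown in RPMI, on 3 arrays labelled control (replicates 1 to 3) and 3 labelled PSMA (replicates 4 to 6). Per the labels, the PSMA cells received a plasmid named pLNCX-PSMA, and the control cells the vector alone, although their titles and genotype entries call them wild type. Both were transfected with FUGENE 6, allowed 72 h of recovery and then selected with puromycin. The labels do not say whether a line was 1 clone, nor whether the arrays of a group came from separate cultures, so the p-values cover the spread among these arrays, which could be technical only. PSMA is a folate- and peptide-cleaving surface enzyme encoded by FOLH1.

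NRF2 is a transcription factor that the adaptor KEAP1 normally hands to a CUL3 ubiquitin ligase for destruction. Oxidants and electrophiles disable KEAP1, and NRF2 then pairs with small MAF proteins on antioxidant response elements of genes for quinone reduction, haem breakdown, glutathione synthesis and thioredoxin recycling. Because that control acts largely on the protein, the level of NFE2L2 transcript need not follow NRF2 activity. In prostate, GSTP1 is known for being silenced in most carcinomas through methylation of its CpG-rich promoter, whereas PC3 cells are known to express it.

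RefSeq promoter windows (GRCh38.p14, from 250 bases before to 50 bases after an annotated start) were matched for 8 of the 9 genes, as 12 windows; none was matched for HMOX1. The core of the antioxidant response element was searched as TGACNNNGC on both strands. It was found in 5 of the 12 windows, from GCLM, TXNRD1 (both windows), GSTP1 and MGST1, and in 13.3% of all 35116 windows. Over the 8838 windows of tested genes the share was 15%. Counted by gene, 4 of the 8 held it in any window, beside 16.1% of 27305 genes. The windows of the 3 measured genes that hold it are printed 5′ to 3′ along the gene's strand, because these genes changed in different directions on the arrays described below; capitals mark the match. A match describes letters and not binding, and the absence of one says nothing of sites outside the window.

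GSTP1 chr11:67583562-67583861 (+): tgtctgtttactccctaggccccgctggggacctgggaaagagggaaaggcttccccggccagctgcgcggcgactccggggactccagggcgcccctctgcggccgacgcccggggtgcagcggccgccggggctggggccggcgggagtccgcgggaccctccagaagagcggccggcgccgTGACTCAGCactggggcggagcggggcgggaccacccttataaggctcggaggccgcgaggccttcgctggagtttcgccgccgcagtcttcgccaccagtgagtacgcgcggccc
GCLM chr1:93909381-93909680 (-): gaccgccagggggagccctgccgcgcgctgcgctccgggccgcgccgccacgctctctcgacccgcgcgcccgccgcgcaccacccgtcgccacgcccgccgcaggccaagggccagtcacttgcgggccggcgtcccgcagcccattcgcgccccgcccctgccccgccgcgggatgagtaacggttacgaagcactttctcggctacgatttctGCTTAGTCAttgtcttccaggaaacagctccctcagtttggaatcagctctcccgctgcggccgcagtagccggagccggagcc
TXNRD1 first start chr12:104215529-104215828 (+): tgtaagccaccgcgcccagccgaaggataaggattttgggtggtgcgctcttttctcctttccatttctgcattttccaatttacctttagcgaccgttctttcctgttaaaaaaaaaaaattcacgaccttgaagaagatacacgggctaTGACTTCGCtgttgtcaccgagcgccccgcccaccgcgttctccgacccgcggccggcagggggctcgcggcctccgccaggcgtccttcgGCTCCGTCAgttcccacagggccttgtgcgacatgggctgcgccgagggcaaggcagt
TXNRD1 second start chr12:104286782-104287081 (+): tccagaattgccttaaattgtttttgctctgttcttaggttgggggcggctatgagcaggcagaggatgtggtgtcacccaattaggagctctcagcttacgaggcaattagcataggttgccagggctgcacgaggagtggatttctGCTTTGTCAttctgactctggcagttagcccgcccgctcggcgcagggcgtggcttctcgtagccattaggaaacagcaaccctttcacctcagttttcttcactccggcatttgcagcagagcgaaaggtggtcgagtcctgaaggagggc

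In GSTP1 the match began 66 bases before the start site and also spells TGACTCA, the letters bound by AP-1 factors. The GCLM match began 34 bases before its start and lies on the opposite strand. The first TXNRD1 window held 2 matches, beginning 99 and 8 bases before the start, and the second window held 1, beginning 102 bases before it on the opposite strand. The GSTP1 window held 36 CpG dinucleotides, against a median of 26 over the 8838 windows of tested genes. This was not particular to GSTP1: GCLM had 41, the NFE2L2 windows 39 and 35, TXN 34 and GCLC 32, while NQO1 had 14. The TXNRD1 windows had 27 and 12, and those of MGST1 had 4, 18 and 19.

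FOLH1 signal ran against the labels. On its brightest probe set, which is shared with the paralog FOLH1B, the arrays labelled control read 480.8 ± 65.3 units (SD, n = 3) and those labelled PSMA 12.5 ± 3.44, and the probe set of FOLH1 alone read 60.5 ± 0.914 and 28.1 ± 3.80. All directions below follow the labels as deposited, so a gene that rose read higher with the PSMA label, where FOLH1 itself read lower. Arrays of 1 group correlated at r = 0.9975 to 0.9981 over log2 values of all probe sets and arrays of different groups at 0.9875 to 0.9879. Epithelial markers were above the filter for 5 of 5 genes, with a summed level of 16514 to 17012 on control and 13233 to 13716 on PSMA arrays. Leucocyte markers had 3 measured genes and 0 above the filter, with a summed level of 38.9 to 44.8 on control and 44.3 to 48.2 on PSMA arrays. Among fibroblast and endothelial markers COL1A1 and PECAM1, 2 of 5, were above it, with a summed list level of 173 to 204 on control and 194 to 214 on PSMA arrays.

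The defence genes split rather than moving as a block. GSTP1, GCLM, TXN and one of the GCLC probe sets were lower on the arrays labelled PSMA, HMOX1, NQO1 and TXNRD1 were higher, and NFE2L2 did not pass the test. Of the 12 probe sets, 5 rose, 4 fell and 3 did not pass limma at an adjusted p of 0.05. The background was high: 60.6% of all 11303 tested probe sets passed, 28.2% higher and 32.4% lower, and in 67.3% the groups did not overlap, as in 9 of the 12 here. By the brightest probe set of each gene, 3 of 8 rose and 4 fell, against 62.4% of 7035 genes called, 29.6% higher and 32.8% lower. No member reached a 2-fold difference. The median log2 difference of the 8 genes was -0.18, and that of all 7035 genes -0.01. The median size was 0.32 for the 8 and 0.22 for all genes.

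**Figure D1:**
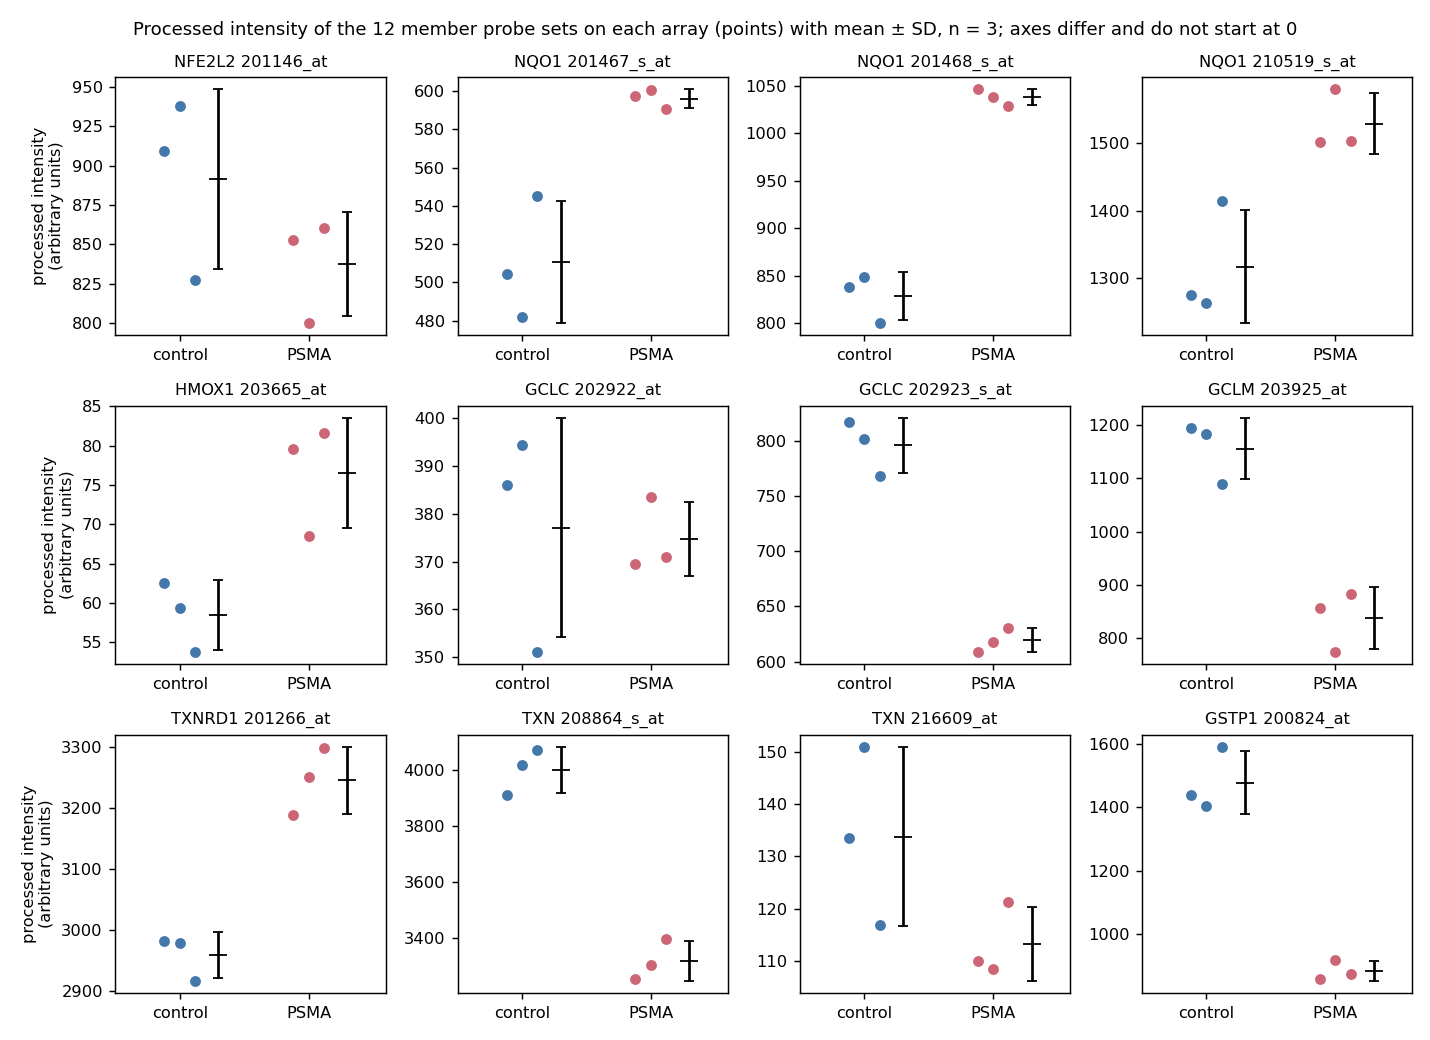
Processed intensity (arbitrary units, linear) of each member probe set on the 3 arrays labelled control (blue) and the 3 labelled PSMA (red), with group mean and SD beside the points; axes differ between panels and do not start at 0. The groups stand apart in 9 of 12 panels, with GSTP1 lower on PSMA arrays (858.7 to 919.4 units) than on control arrays (1403 to 1591), and they overlap for NFE2L2, the dimmer GCLC probe set and the dimmer TXN probe set.

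NFE2L2, the gene of NRF2 itself, had 1 probe set. It read 909.3, 937.7 and 827.3 units on control replicates 1 to 3 and 852.6, 799.9 and 860.2 on PSMA replicates 4 to 6. The lowest control array lay inside the range of the PSMA arrays, so the groups overlapped. The log2 difference was -0.09 (95% interval -0.23 to 0.05, SE 0.06, limma adjusted p = 0.227), which spans a small decrease as well as no change. Without control replicate 3, the lowest of its group, the difference was -0.14 with an adjusted p of 0.0467.

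Glutathione is built by glutamate-cysteine ligase, a pair of a catalytic subunit, GCLC, and a modifier subunit, GCLM, that makes the catalytic subunit more efficient. GCLM read 1195, 1184 and 1090 units on control arrays and 857, 773.5 and 883.8 on PSMA arrays. Every PSMA array lay below every control array. GCLM thus fell by 0.47 on the log2 scale (SE 0.06, limma adjusted p = 0.00033), or 27.6% lower.

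The 2 probe sets of GCLC gave different answers. On the brighter one, GCLC read 817.4, 801.5 and 768.2 units on control and 609, 618.1 and 630.6 on PSMA arrays. These values do not overlap, and the signal was 22.2% lower (log2 difference -0.36, SE 0.04, limma adjusted p = 0.000184). The dimmer one read 386, 394.3 and 351 on control and 369.5, 383.6 and 371 on PSMA arrays, with full overlap, a log2 difference of -0.01 and a 95% interval of -0.13 to 0.12. The log2 ratio of the brighter to the dimmer on the same array was 1.08 ± 0.05 on control and 0.73 ± 0.04 on PSMA arrays (SD, n = 3), without overlap; the exact two-sided permutation p was 0.1, the smallest that 3 against 3 arrays allow, and 0.1 after adjustment over the 2 ratios computed. Which GCLC transcripts each probe set reads was not examined, so the decrease of GCLC holds for 1 of its 2 probe sets.

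Thioredoxin, TXN, is a small disulphide-reducing protein, and thioredoxin reductase 1, TXNRD1, restores it with electrons from NADPH. TXN on its brighter probe set read 3911, 4021 and 4074 units on control and 3252, 3302 and 3395 on PSMA arrays. All PSMA arrays were below all control arrays, a decrease of 17.1% (log2 difference -0.27, SE 0.04, limma adjusted p = 0.000768). Its dim probe set read 133.5, 151 and 116.8 on control and 110, 108.4 and 121.3 on PSMA arrays; the groups overlapped and it missed the threshold (log2 difference -0.23, adjusted p = 0.0539). It passed without control replicate 3 (-0.33, adjusted p = 0.00753) and without PSMA replicate 6 (-0.29, adjusted p = 0.0439).

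TXNRD1 went the other way from its substrate. It read 2982, 2979 and 2916 units on control and 3188, 3250 and 3297 on PSMA arrays, without overlap. The increase was small, 9.66% (log2 difference 0.13, SE 0.04, limma adjusted p = 0.0221). It did not hold at the threshold without control replicate 1 (adjusted p = 0.0529), control replicate 2 (0.0501), PSMA replicate 5 (0.0685) or PSMA replicate 6 (0.0673), with a log2 difference of 0.12 to 0.15 over all 6 omissions, nor when dim probe sets were kept (0.086). On the log2 scale the ratio of the TXNRD1 to the TXN probe set was -0.44 ± 0.05 on control and -0.03 ± 0.01 on PSMA arrays (SD, n = 3), a difference of 0.40 (exact two-sided permutation p = 0.1, the smallest possible, and 0.1 adjusted over the 2 ratios). Since TXNRD1 was higher and TXN lower on every PSMA array, the ratio had to separate the groups. It therefore adds no evidence beyond the results of the single genes.

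NQO1 is a flavoprotein that reduces quinones by a pair of electrons and its transcript is widely read as a marker of NRF2 activity. Its brightest probe set read 1275, 1263 and 1414 units on control and 1502, 1581 and 1503 on PSMA arrays. NQO1 rose on all 3 of its probe sets, and on each of them the groups did not overlap. The increase was 16.2% on the brightest (log2 difference 0.22, limma adjusted p = 0.0101), 25.2% on the next (log2 difference 0.32, limma adjusted p = 0.000292) and 16.9% on the dimmest (0.23, adjusted p = 0.00665). Probe sets of 1 gene share their RNA and are not independent replicates.

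HMOX1 encodes haem oxygenase 1, which opens the haem ring and frees iron, and it is induced by haem and oxidants. Its single probe set was dim, close to the filter of 52.5 units, and read 62.5, 59.3 and 53.7 on control and 79.5, 68.5 and 81.5 on PSMA arrays. The PSMA arrays were all above the control arrays, with replicate 5 the nearest to them. HMOX1 rose by 30.7% (log2 difference 0.39, SE 0.08, limma adjusted p = 0.00347). With log2 of the value plus 16 the difference is 0.31, and at a stricter filter, the 60th percentile, the probe set was not tested.

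GSTP1, the pi-class glutathione transferase that joins glutathione to electrophiles, showed the largest difference of the 8 genes. It read 1439, 1403 and 1591 units on control and 858.7, 919.4 and 875.3 on PSMA arrays. The lowest control array was well above the highest PSMA array. The signal was 40.1% lower, a log2 difference of -0.74 (SE 0.06, 95% interval -0.87 to -0.60, limma adjusted p = 1.5e-05), and 91.6% of all tested probe sets differed by less. Leaving out each array in turn gave -0.78 to -0.69, each past the threshold. Against a minimum fold of 1.5, limma gave an adjusted p of 0.188 for GSTP1, and 0 of the 12 probe sets passed; at an unadjusted p of 0.05, GSTP1 was the 1 that did.

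**Figure D2:**
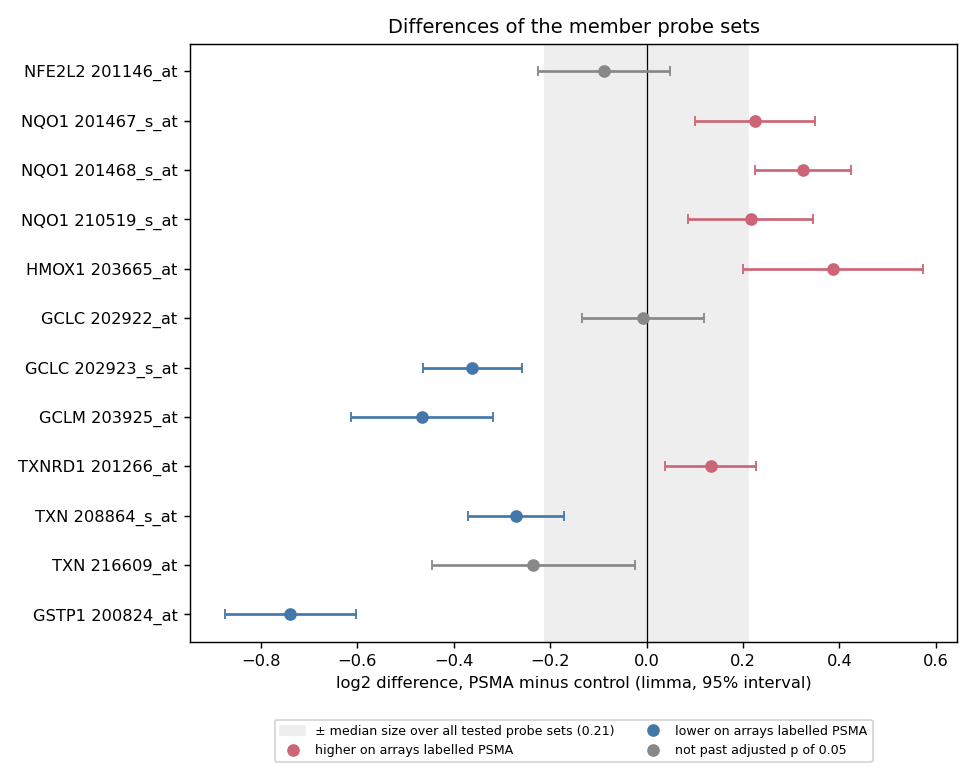
Log2 difference (arrays labelled PSMA minus arrays labelled control, limma) of each member probe set with its 95% interval; red passed the threshold as higher, blue as lower, grey did not pass. The grey band is the median size of the difference over all 11303 tested probe sets, 0.21; GSTP1 lies at -0.74, GCLM at -0.47 and HMOX1 at 0.39, while NFE2L2 and the second GCLC probe set cover 0.

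Since neighbouring genes on a chromosome shifted together in earlier results of these data, each member was set beside the 7 tested genes on either side of it. NQO1 on chromosome 16 lay in such a stretch. Of its 14 neighbours 13 were higher on PSMA arrays, with a median log2 difference of 0.32, above that of NQO1's own brightest probe set, 0.22. Over the 6711 genes with 14 such neighbours, 87.3% had a neighbour median smaller in size, and 11.6% had 13 or 14 neighbours of 1 sign. The median without control replicate 3 was 0.27. The part of the neighbourhood in the NQO1 difference was not tested.

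GSTP1 on chromosome 11 stood apart from its surroundings. The neighbours of GSTP1 had a median of -0.04, 9 of 14 were lower, and they ran from -0.64 to 0.50, so GSTP1 at -0.74 lay below all of them. The neighbours of GCLM had a median of -0.11 and ran from -1.15 to 1.05. Those of GCLC had a median of -0.06 and ran from -0.63 to 0.33. Both medians were nearer to 0 than the member, but GCLM and GCLC lay inside these ranges. Every other measured member apart from GSTP1 also lay inside the range of its neighbours. HMOX1's neighbours had a median of 0.12, TXNRD1's 0.17, TXN's -0.17 and NFE2L2's -0.07, with 8 to 10 of 14 sharing the member's sign. The median size of a neighbour median over all genes was 0.11.

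**Figure D3:**
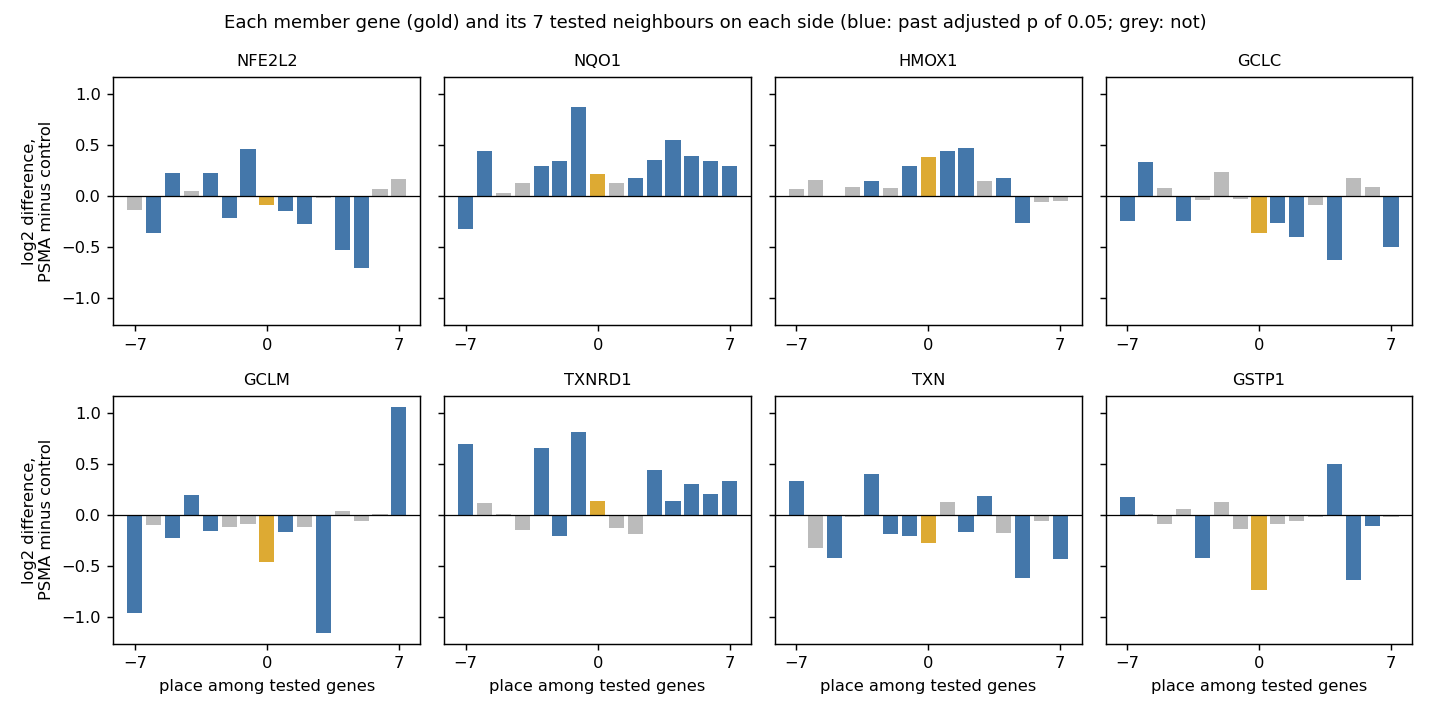
Log2 difference (PSMA minus control) of each of the 8 measured genes (gold, place 0) and its 7 tested neighbours on each side in RefSeq order; blue bars passed adjusted p of 0.05 and grey bars did not. Around NQO1, 13 of 14 bars point up; around GSTP1 the bars straddle 0 and none is lower than GSTP1.

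Transcripts of proteins that set NRF2 activity were tested for 13 of 17 listed regulators; the others had no single-gene probe set or lay below the filter, as in the lists that follow. KEAP1, the sensor that holds NRF2 for destruction, went from 765.9 ± 19.1 to 573.4 ± 24.3 units (SD, n = 3), a log2 difference of -0.42. CUL3, the ligase scaffold to which KEAP1 delivers NRF2, went up from 1345 ± 55.8 to 1889 ± 34.3, a difference of 0.49, and its other tested probe set differed by 0.85. MAFG, a small MAF partner of NRF2, fell by 0.50 on the log2 scale. PALB2, a DNA repair protein that can bind KEAP1, rose by 0.17. In all, 2 of 13 rose, 6 fell and 5 did not pass, beside 29.6% of all genes higher and 32.8% lower. The list median was -0.07. The other decreases were in the kinase GSK3B (-0.16), the KEAP1-binding autophagy receptor SQSTM1 (-0.17), the small MAF protein MAFF (-0.33) and the NRF2 relative NFE2L1 (-0.21). The count past the threshold dropped from 8 to 5 without PSMA replicate 4, without PSMA replicate 5 or with dim probe sets kept, and PALB2 lost its call without PSMA replicate 4, PSMA replicate 5 or control replicate 2. SQSTM1 lost its call without PSMA replicate 4, PSMA replicate 5 or control replicate 1, and GSK3B without any of these or control replicate 3.

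Among other genes known as NRF2 targets, 9 of 19 fell, 5 rose and 5 did not pass the threshold. The shares over all genes were 32.8% lower and 29.6% higher. TRIM16, a ubiquitin ligase of the stress response, went from 329.6 ± 24.2 to 74.5 ± 13.2 units (SD, n = 3; log2 difference -2.16, limma adjusted p = 2.3e-06); its 14 neighbours on chromosome 17 had a median of -1.82. SLC7A11, the cystine importer that feeds glutathione synthesis, went from 427.4 ± 9.5 to 265.2 ± 12, a difference of -0.69 (limma adjusted p = 8.5e-06). The other 7 that fell included the carbonyl reductases CBR3 (-0.62) and CBR1 (-0.51) and the aldo-keto reductases AKR1C3 (-0.65) and AKR1C1 (-0.39). These aldo-keto reductases are close relatives that probe sets may not fully separate. The rest were PIR (-0.48), the biliverdin reductase BLVRB (-0.42) and the malic enzyme ME1 (-0.35). The largest increases were in the efflux pumps ABCC4 (0.52) and ABCC3 (0.32), joined by EPHX1, ABCC1 and NQO2 at 0.13 to 0.29. The other tested probe set of ABCC1 differed by -0.12 and did not pass. NQO2 lost its call without PSMA replicate 4, PSMA replicate 5, control replicate 1 or control replicate 2 and with median centring. The list median was -0.07. So NQO1 and HMOX1 moved up on arrays where SLC7A11, CBR1, CBR3 and PIR moved down.

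Genes of glutathione synthesis, recycling and breakdown went both ways, with 6 of 14 higher, 5 lower and 3 not past. Over all genes 29.6% were higher and 32.8% lower. ESD, which releases glutathione from S-formylglutathione, went from 1026 ± 59.7 to 2058 ± 49.6 units (SD, n = 3), a log2 difference of 1.01. Its 14 neighbours on chromosome 13 were all higher, with a median of 0.96. GLRX5, a mitochondrial glutaredoxin, rose by 0.62 among neighbours with a median of 0.41. GGCT, which acts on gamma-glutamyl peptides, fell by 0.53 and HAGH, a glyoxalase, by 0.41 on the log2 scale. Glutathione synthetase, GSS, which adds glycine after the GCLC and GCLM step, was higher by 0.31, and glutathione reductase, GSR, differed by -0.40. Both passed. So GSS rose while GCLM and the brighter GCLC probe set, of the step before it, fell. The dimmer GCLC probe set did not pass.

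Other glutathione transferases passed in 5 of 12 cases, beside 62.4% of all genes. GSTZ1 (-0.98), GSTK1 (-0.73), GSTM3 (-0.67) and GSTT1 (-0.20) also fell, and PTGES, a prostaglandin E synthase related to the microsomal transferases, rose by 0.28. PTGES lost its call without PSMA replicate 5, and GSTT1 without PSMA replicate 6, control replicate 2 or control replicate 3. GSTZ1 went from 249.7 ± 16.3 to 127 ± 12.4 units (SD, n = 3), and its neighbours had a median of 0.04. Probe sets of the closely related mu-class genes may read each other's transcripts. The microsomal transferases MGST2 (-0.04) and MGST3 (-0.09) did not pass.

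Thioredoxins, peroxiredoxins and their partners went both ways: 4 of 16 rose, 3 fell and 9 did not pass, with a median of -0.03, beside 62.4% of all genes called. NXN, nucleoredoxin, rose by 0.46 and PRDX4, the peroxiredoxin of the secretory pathway, by 0.44, from 4978 ± 111 to 6754 ± 110 units (SD, n = 3). The methionine sulphoxide reductases MSRB1 and MSRB2 fell by 0.38 and 0.17. The count past the threshold dropped from 7 to 4 without control replicate 1 or with dim probe sets kept. MSRB2 kept its call in 1 of 6 omissions, that of control replicate 2, and its difference ranged from -0.21 to -0.12.

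Among genes for enzymes that remove superoxide and peroxide, 6 of 7 fell and 1 rose, beside 32.8% of all genes lower and 29.6% higher, and the median was -0.23. With dim probe sets kept, 5 of 10 fell, 1 rose and the others did not pass. In that fit 3570 of all 22215 probe sets were lower and 3531 higher. The 6 were CCS, the copper chaperone of superoxide dismutase (-0.56), PON2 (-0.43), catalase, CAT (-0.39), SOD3 (-0.23), SOD1 (-0.22) and GPX1 (-0.19). SOD3 lost its call without PSMA replicate 5, PSMA replicate 6, control replicate 1 or control replicate 3. GPX4, which uses glutathione to reduce lipid peroxides, rose from 1848 ± 66.2 to 2316 ± 65.5 units (SD, n = 3; log2 difference 0.33).

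NADPH is the electron source for both glutathione reductase and TXNRD1. A list drawn up for its generation, which includes enzymes that do not themselves make it, had 12 tested genes. Of these 5 rose, 4 fell and 3 did not pass, with a median of -0.01. NNT, the mitochondrial transhydrogenase, fell by 0.91 on the log2 scale and TALDO1, of the pentose phosphate pathway, by 0.44. ME2 rose by 0.50 and IDH2 by 0.41, both mitochondrial. For haem and iron, 5 of 16 rose, 6 fell and 5 did not pass, with a median of -0.08. Beside the NADPH and the haem counts, 29.6% of all genes were higher and 32.8% lower. HMOX2, the constitutive partner of HMOX1, went from 342.3 ± 22 to 222.3 ± 18.4 units (SD, n = 3; log2 difference -0.62), the opposite direction from HMOX1. BLVRB fell by 0.42, while PPOX, of haem synthesis, rose by 0.48 and ACO1, the iron-sensing aconitase, by 0.34. FECH fell by 0.21 on its brightest probe set and was higher by 0.48 on the other, both past the threshold.

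**Figure D4:**
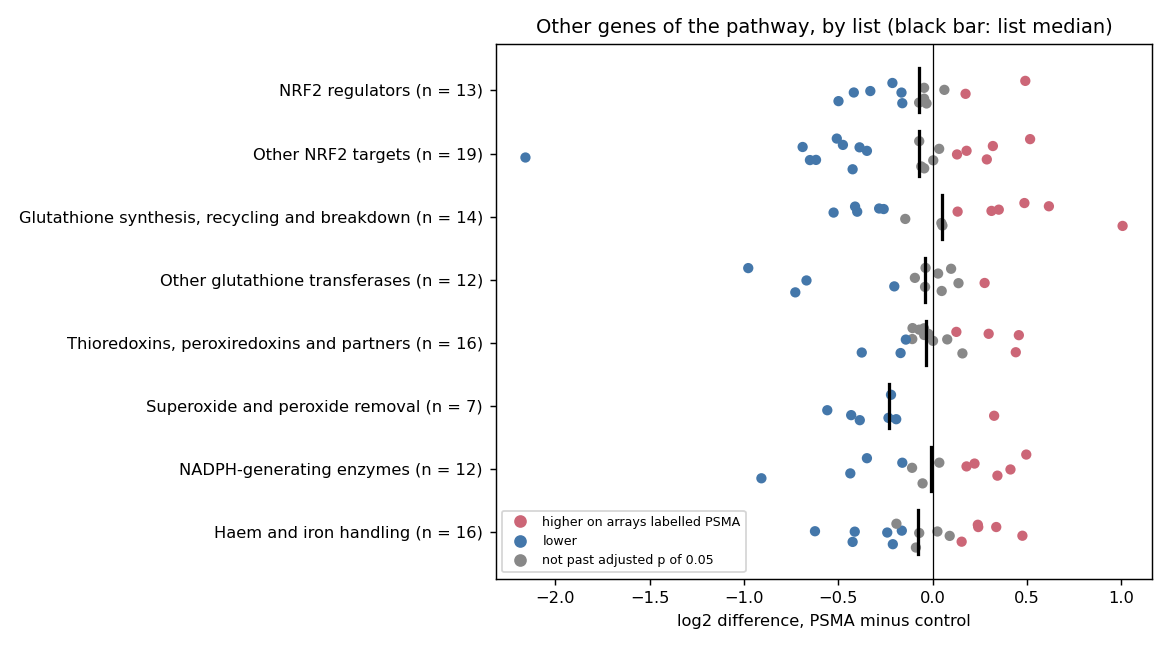
Log2 difference (PSMA minus control) of each tested gene in 8 lists of related genes, 1 point a gene by its brightest probe set; red passed as higher, blue as lower, grey did not pass, and black bars are list medians. Medians lie between -0.23, for superoxide and peroxide removal, and 0.05, for glutathione synthesis, recycling and breakdown; the far-left point is TRIM16 at -2.16 and the far-right point ESD at 1.01.

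Over all lists, with genes in more than 1 list counted once, 70 of 105 tested genes passed, 29 higher and 41 lower, beside 62.4% of all genes. The median log2 difference was -0.05.

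Profiles most like those of 2 members were looked up by Pearson's r of log2 values over the 6 arrays among 7027 other genes. For NFE2L2 they were TRIM33 (r = 0.995), a ubiquitin ligase of SMAD signalling, ZNF277 (0.989) and DCAF8 (0.977), and 15 genes had r above 0.95. For GSTP1, the member with the largest difference, they were GPAA1 (0.999), a subunit of the enzyme that attaches glycolipid anchors, EXOSC4 (0.999), of the RNA exosome, and YIF1A (0.998), of the Golgi. GPAA1 went from 630.5 ± 28.1 to 398.7 ± 14.5 units (SD, n = 3). For GSTP1, 1018 genes had r above 0.95; the 6 points are 2 groups of 3, so these values describe the arrays only.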

How the data were processed

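RNA of PC3 cells was measured on 6 Affymetrix arrays, 3 labelled control and 3 labelled PSMA. Each probe set has 1 deposited intensity per array; the submitters' processing notes name GCRMA, while its settings are not given in the sources used here. Values ran from 3.76 to 17455 with array medians of 51.7 to 52.9, and were taken as linear. The table held 22277 probe sets, of which 62 controls were left out.

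Values were log2-transformed without a pseudocount and not normalized further. Probe sets above the median (52.5) on at least 3 of 6 arrays, 11303 in all, were fitted together with limma 3.58.1 (lmFit, eBayes) in R 4.3.3, PSMA minus control, with two-sided p-values, Benjamini-Hochberg adjustment over all of them and a threshold of 0.05. Genes were read by their brightest single-gene probe set. The fit was tested on simulated data. Array number limits precision.

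The members and lists were chosen with earlier results of these data known. Named genes were all members, FOLH1, the 2 largest increases and decreases past the threshold without overlap in each list, and the 3 profiles most like NFE2L2 and the member with the largest difference; others were named after their values were seen. Symbols came from the platform annotation (19052 of 19064 single-gene probe sets were found in RefSeq GRCh38.p14). Alternatives changed normalization, filter, floor, pseudocount, variance model, minimum fold, probe set choice and arrays. Python 3.11.15 was used for summaries. One list of cell type markers is not reported here.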

Additional observations from a re-analysis of the deposited data

How the results depend on the processing

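Alternatives were quantile normalization, median centring, other filters and a floor at the 25th percentile. A pseudocount of 16, a trended robust variance and omission of single arrays were also used. Across these, 8 to 11 of the 12 member probe sets passed, beside 9 in the report, and 6 to 8 of the 8 genes. The stricter filter tested 11 member probe sets and 7 genes, of which 9 and 6 passed. Over all probe sets, 5904 of 9123 passed at that filter and 7101 of 22215 with dim probe sets kept. With the filter of the report, 6078 to 7107 of 11303 passed across these settings. Testing against a minimum fold of 1.5 left 747 of all probe sets, 0 of the member probe sets, 0 of the member genes and 3 list genes (limma; at an unadjusted p of 0.05, 1 member and 6 list genes). By list it left 1 gene each among other NRF2 targets (TRIM16), glutathione synthesis (ESD) and other transferases (GSTZ1), and 0 regulators, thioredoxins, superoxide and peroxide enzymes, NADPH enzymes and haem genes (limma; unadjusted, 1 NADPH enzyme, NNT, and 0 in the other 4). With dim probe sets kept, 5 regulators and 4 thioredoxin genes passed. Leaving out single arrays gave 5 to 8 regulators and 4 to 7 thioredoxin genes. The dimmer GCLC probe set, called under no setting, turned sign with quantile normalization (0.008) and ranged from -0.058 to 0.025 when single arrays were left out. Some neighbour medians moved by more than the SD, between arrays of a group, of the neighbours' median level, though by less than the range over the neighbours themselves. With 5 genes on each side they were 0.147 for HMOX1, 0.070 for TXNRD1 and -0.072 for GSTP1. With the stricter filter they were -0.015 for NFE2L2, 0.148 for HMOX1, -0.163 for GCLC and -0.087 for GSTP1, and with quantile normalization 0.137 for HMOX1. Single-array omissions gave neighbour medians of 0.273 to 0.345 for NQO1, 0.088 to 0.122 for HMOX1 and -0.078 to -0.017 for GSTP1. The causes were not tested. No paired analysis was possible because the groups share no replicate number.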
